A study of Mus musculus with 4 samples.

Results

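Cells that phosphorylate eIF2 alpha make more of the transcription factor ATF4, and the genes examined here are those of its metabolic arm. The members were listed by gene symbol, and every probe set whose only gene symbol in the platform annotation was one of them was used. They are the alanyl-, glycyl- and tryptophanyl-tRNA synthetase genes Aars, Gars and Wars (now also written Aars1, Gars1 and Wars1), the asparagine synthetase gene Asns, the serine and glycine synthesis genes Phgdh, Psat1 and Shmt2, and the tRNA export receptor gene Xpot. Of these 8 genes, 7 had a probe set, out of 6137 genes with a single symbol on the arrays. Gars had 0 probe sets and was not measured. The 7 genes were represented by 8 probe sets, 2 of them for Aars.

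The cells were a stable line of NIH3T3, an immortalised mouse fibroblast line, in which wild-type PKR is transcribed from a promoter that tetracycline represses. PKR is a kinase that double-stranded RNA activates and that phosphorylates eIF2 alpha. In the control condition the cells received 1 µg/ml tetracycline in DMEM with 5% FCS. In the other condition tetracycline had been absent for 5 h, and the labels give no serum content for it. All 4 arrays therefore come from the same transgenic line. Neither the species of the PKR sequence nor the number of clones behind the line is stated. Total RNA went onto 2 array types, the second marked MB, with 1 array per condition and type. The types carry different probe sets, so there was no replicate, no p-value could be computed, and all differences describe these 4 arrays.

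When eIF2 alpha is phosphorylated, general translation slows while the ATF4 open reading frame is translated more. ATF4, usually paired with a C/EBP protein, binds composite sites near its targets, which include amino acid transporters, enzymes that make non-essential amino acids, and the synthetases that load amino acids onto tRNAs. Phgdh and Psat1 encode consecutive enzymes of serine synthesis from a glycolytic intermediate. Shmt2 encodes the mitochondrial enzyme that splits serine into glycine and a folate-bound one-carbon unit.

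The promoters are shown because the members with and without the letters of an ATF4 composite site were measured with opposite signs (values below). Several of these differences were small. RefSeq promoter windows of GRCm38.p6, 250 bases before to 50 bases after an annotated start, were found for 7 of the 8 members, all but Wars. The letters searched were TGATGNAA on either strand, which read TTNCATCA when the site lies on the opposite strand. This string can overlap longer C/EBP and CRE-type motifs. Of all 32851 windows, 3.97% held it. Asns, Aars and Gars held it, and Phgdh, Psat1, Shmt2 and Xpot did not. Below are the 150 bases before the start on the gene's own strand, with the matching letters in capitals, for the 3 holders and for the pair of members with the lowest changes, Shmt2 and Psat1.
Asns, chr6:7693210-7693359, minus strand: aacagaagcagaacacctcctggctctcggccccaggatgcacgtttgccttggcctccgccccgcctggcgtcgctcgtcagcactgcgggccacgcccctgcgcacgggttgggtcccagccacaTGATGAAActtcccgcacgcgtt
Aars, chr8:111033692-111033841, plus strand: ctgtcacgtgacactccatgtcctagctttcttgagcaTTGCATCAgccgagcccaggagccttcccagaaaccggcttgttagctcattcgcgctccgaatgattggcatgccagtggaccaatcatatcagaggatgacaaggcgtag
Gars, chr6:55037851-55038000, plus strand: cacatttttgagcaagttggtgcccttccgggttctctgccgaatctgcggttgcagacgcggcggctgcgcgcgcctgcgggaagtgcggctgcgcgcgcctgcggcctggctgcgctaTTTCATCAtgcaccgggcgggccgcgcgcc
Shmt2, chr10:127522445-127522594, minus strand: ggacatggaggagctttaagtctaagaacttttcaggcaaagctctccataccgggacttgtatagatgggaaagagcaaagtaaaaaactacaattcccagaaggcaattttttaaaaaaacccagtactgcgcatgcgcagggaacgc
Psat1, chr19:15925060-15925209, minus strand: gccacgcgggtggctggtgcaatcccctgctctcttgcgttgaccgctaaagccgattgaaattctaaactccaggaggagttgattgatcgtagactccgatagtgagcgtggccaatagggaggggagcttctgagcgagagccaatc

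The Asns match lay at bases -23 to -16 from the start, and that of Gars at bases -30 to -23, on the opposite strand. Aars had a match at bases -112 to -105 and a second one within the transcribed part, at bases 10 to 17, both on the opposite strand. The Aars window belongs to a start 6064 bases inside the annotated extent of the gene. Psat1 had a second window, which also lacked the letters. A match in letters is not evidence of binding, and the lack of one covers only these windows.

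The members did not share a direction at 5 h, and no difference was large. The 3 genes for tRNA charging and asparagine synthesis, Aars, Wars and Asns, were slightly higher after withdrawal, and the 4 genes for serine and glycine synthesis and tRNA export, Psat1, Phgdh, Shmt2 and Xpot, were lower. Across the 7 genes log2 withdrawn over tetracycline ran from -0.57 to 0.28 with a median of -0.087, beside -0.0037 for all 4507 measured genes. Counting required a difference of at least 2-fold between intensities both above a floor, the 25th percentile of all intensities of the type (130 for the first and 80.0 for MB). None of the 7 genes passed 2-fold in either direction, against 5.26% of all measured genes higher and 4.22% lower. None of them passed 1.5-fold either, where 13.2% of all genes were higher and 10.8% lower. By probe set the 2-fold background was 4.36% higher and 4.02% lower on the first type, and 8.46% and 6.65% on MB. All 8 member probe sets also exceeded a stricter control floor on both arrays, the 95th percentile over bacterial and yeast controls (281.5 and 340.4). Above that floor the background was 1.88% higher and 1.29% lower on the first type, and 1.97% and 0.767% on MB, and a count of 0 among 8 probe sets lies near these shares. In bulk RNA, fewer cells that express a gene cannot be told apart from less of its RNA per cell.

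**Figure D1:**
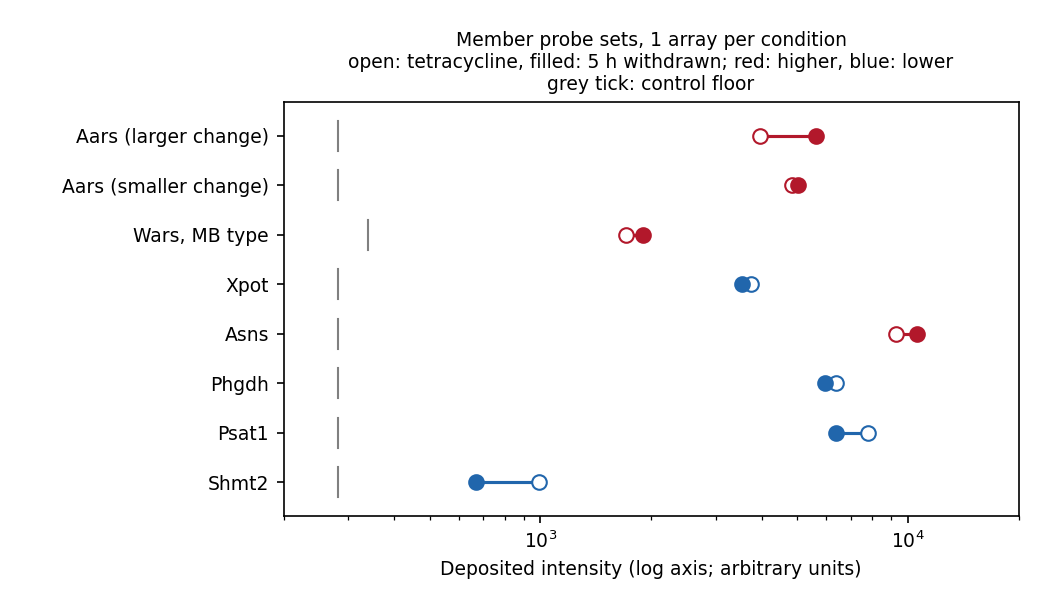
Deposited intensity on a log axis (arbitrary units) of each member probe set with tetracycline (open) and 5 h after withdrawal (filled), 1 array each, with the control floor of the array type as a grey tick. The red pairs (Aars, Wars, Asns) are higher after withdrawal and the blue pairs (Xpot, Phgdh, Psat1, Shmt2) lower, and all lie to the right of the tick.

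Of the tRNA charging genes, Aars encodes the enzyme that attaches alanine to its tRNA. Its probe set AA217762_s_at read 3963.8 with tetracycline and 5618.5 after withdrawal. This is the largest upward difference among the member probe sets, 1.42-fold or 0.50 on the log2 scale. A second Aars probe set, aa254996_s_at, read 4846.7 and 5026.2, a log2 change of only 0.052. Both pointed upward, but they differed by 0.45, so the size of the Aars change rests on 1 of its 2 probe sets. Among the 274 genes, Aars included, with exactly 2 probe sets above the control floor on this array type, the difference between the 2 had a median of 0.32. It was larger than that of Aars in 33.9% of these genes, and the signs were opposite in 41.2%.

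Wars encodes the tryptophanyl-tRNA synthetase, which interferon gamma also induces, and was the only member on the MB type. It read 1711.8 with tetracycline and 1900 after withdrawal. The log2 change was 0.15, or 1.11-fold, a small upward difference. Xpot encodes exportin-t, which carries mature tRNAs out of the nucleus. It read 3749.6 with tetracycline and 3529.9 after withdrawal, a log2 change of -0.087. The tRNA exporter thus lay on the other side of 0 from the synthetases, by a small margin.

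Asns encodes the enzyme that makes asparagine from aspartate and glutamine and is a widely used reporter of amino acid shortage. It read 9302.4 with tetracycline and 10561.1 after withdrawal. The log2 change was 0.18, or 1.14-fold. Of the 200 measured probe sets nearest in level on the same arrays, 53.0% had a larger difference from 0 in either direction. By that measure Asns did not stand out. These neighbours had a median of -0.10, however, and relative to it Asns stood at 0.29.

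The 3 serine and glycine genes were all lower. Phgdh encodes phosphoglycerate dehydrogenase, the first enzyme of serine synthesis, and had an intensity of 6378.5 with tetracycline and 5933.9 without (-0.10). Psat1 encodes the aminotransferase of the next step and read 7791.9 and 6380.1 (-0.29). Shmt2 read 990.7 and 669.3, the largest downward difference among the members, with a log2 change of -0.57. Shmt2 was 1.48-fold lower, and 11.3% of the measured probe sets on the first type had a lower change.

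For scale, each change was set against a spread, a robust SD taken over the 200 measured probe sets closest to it in intensity, which mixes noise with real differences and is no replicate error. It ranged from 0.27 to 0.38 for the member probe sets. Only 2 of the 8 changes, measured from 0, exceeded 1 spread. These were AA217762_s_at for Aars (1.80 spreads) and Shmt2 (-1.49 spreads), and 0 exceeded 2. The spread itself is taken around the median of those neighbours. Measured from that median, Asns (0.29 against a spread of 0.27) exceeded 1 spread as well. Of the probe sets nearest in level, 9.5% had a larger absolute change than this Aars probe set and 16.5% a larger one than Shmt2. For Phgdh, Xpot and the second Aars probe set that share was 74.5%, 82.5% and 86.5%. These 3 are close to no difference at the precision of single arrays.

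Bright probe sets were slightly lower on both types. On the first type the brightest 20% of measured probe sets had a median log2 change of -0.060, against 0.043 in the next 20%. The actin and Gapdh control probe sets, which are in that intensity range, gave -0.21 to -0.38. On MB the same medians were -0.066 and 0.031, and these controls gave -0.022 to -0.23. The members other than Shmt2 and Wars lie in the brightest 20% of the first type. Relative to the median of their 200 neighbours, Aars stood at 0.55 and 0.11, Asns at 0.29, Psat1 at -0.23, Phgdh at -0.064 and Xpot at -0.017, while Shmt2 stood at -0.64. Every member kept its sign, and the gaps of Phgdh and Xpot from their neighbours shrank towards 0. The gaps of Asns, Shmt2 and both Aars probe sets were larger than their changes from 0.

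**Figure D2:**
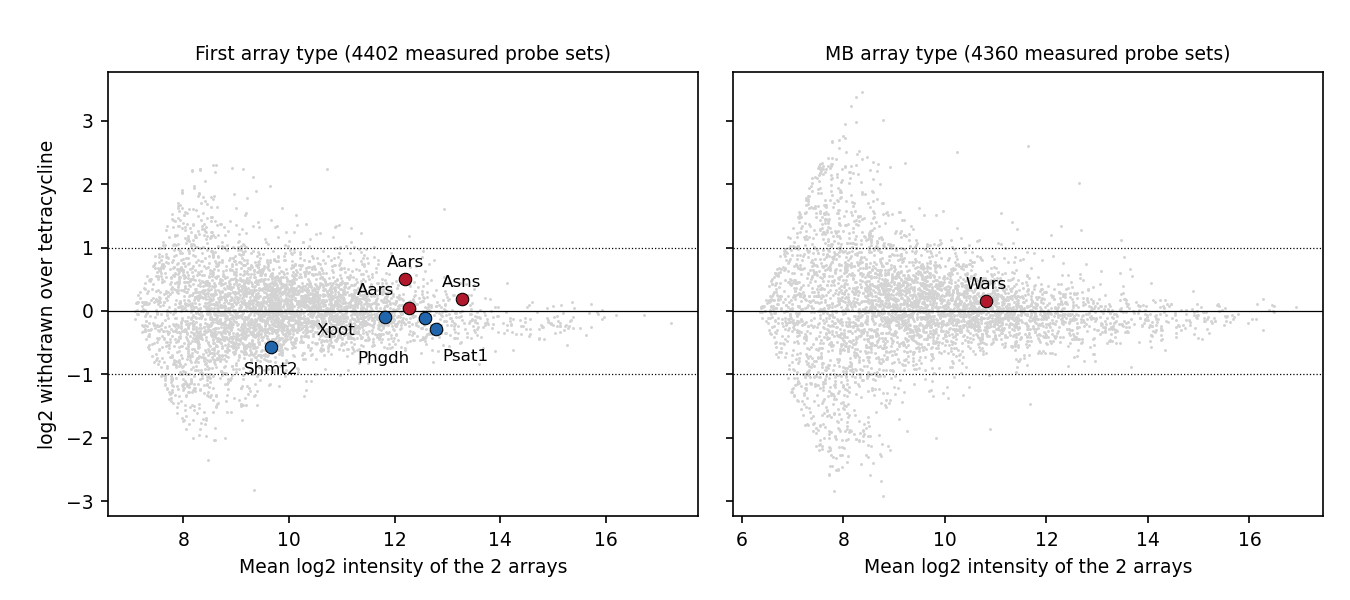
Log2 withdrawn over tetracycline against the mean log2 intensity of the 2 arrays for all measured probe sets (grey points; 4402 on the first type, 4360 on MB), with member probe sets in red (higher) or blue (lower) and dotted lines at 2-fold. All 8 member points lie between the dotted lines, inside the cloud of probe sets of like level.

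The other genes of the pathway were taken from 5 lists of textbook members and described by counts and medians. Cytosolic synthetases and their scaffold proteins other than the members leaned upward. Of 14 on the arrays 13 were measured, of which 10 (76.9%) were higher and 3 lower to any extent. Their median was 0.20, and 0 passed 2-fold. Over all measured genes 49.6% were higher to any extent, 13.2% by at least 1.5-fold and 5.26% by at least 2-fold. The cysteinyl-tRNA synthetase gene Cars read 1921.1 with tetracycline and 3650.3 after withdrawal, a log2 change of 0.93. This was the largest in the list, and with Yars (0.59) it made the 2 genes past 1.5-fold. Next came the asparaginyl- and methionyl-tRNA synthetase genes Nars (0.46) and Mars1 (0.40). Yars, for tyrosine, rested on 3 probe sets with 0.62, 0.59 and -0.19, of which only the second, on MB, was above the control floor. Together with Aars and Wars, the synthetases thus lay mostly on the upper side of 0 by amounts under 2-fold. Of the mitochondrial synthetases, which use a separate tRNA pool, only Iars2 was measured, with 0.60 and 0.57 on 2 MB probe sets.

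Other enzymes of amino acid synthesis and folate metabolism leaned downward, like the serine genes among the members. Of 17 on the arrays 15 were measured, of which 10 were lower and 5 higher, with a median of -0.24, which was -0.089 over the 10 genes of the first type alone. Among all 4507 measured genes 2270 were lower to any extent. Passing 2-fold were Asl, encoding argininosuccinate lyase (-1.06, from 599.5 with tetracycline to 287.2), and Got1, encoding cytosolic aspartate aminotransferase (1.36, from 247 to 635.4). Each direction thus held 6.67% of the list, near the 5.26% higher and 4.22% lower of all measured genes. The tetracycline value of Got1 was below the control floor, and the withdrawn value of Asl was barely above it (281.5 on the first type). Ass1, for the step before Asl in arginine synthesis, gave -0.91, also with its lower value below that floor. Mthfd2, encoding the mitochondrial folate dehydrogenase that uses the one-carbon unit made by Shmt2, read 4232.7 and 6896.5. Its log2 change of 0.70 was opposite in sign to that of Shmt2, the enzyme just upstream. Shmt1, the cytosolic counterpart of Shmt2, looked up after its values were seen, read 25.4 and 131.4 on MB, both below the control floor. The glycine cleavage genes Gcsh (-0.56) and Gldc (-0.68, below the control floor) and the thymidylate synthase gene Tyms (-0.61), which were picked after their values were seen, were lower like Shmt2.

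The measured amino acid transporter genes lay on the upper side. Of 10 on the arrays 7 were above the floor on both arrays, and these 7 were higher to any extent, with a median of 0.33. The other 3 were at or below the floor on at least 1 array and mostly went the other way. Slc7a8 read 28.3 with tetracycline and 13.3 without, Slc7a3 120 and 112.3, and Slc1a1 115.8 and 72.1 on MB but 49.7 and 64.7 on the first type. With a floor at 0.5 times the main one the list had 9 genes and a median of 0.21. The neutral amino acid transporter gene Slc1a4 passed 2-fold, from 353.3 with tetracycline to 868.1 without it, a log2 change of 1.30. Slc3a2, the heavy chain that several transporters share, was higher on both its probe sets (0.86 and 0.63). The arginine transporter gene Slc7a1 gave 0.72 and the glutamine transporter gene Slc1a5 0.33. Slc7a1 read 307.9 and 506.1, near the control floor of 281.5, with a spread of 0.66. The spread was 0.58 for Slc1a4 and 0.34 for Slc1a5. For the brighter Slc3a2 probe sets it was 0.28. Among all measured genes 49.6% were higher to any extent and 5.26% by at least 2-fold.

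Of the 14 pathway regulators on the arrays, 13 were above the floor on both arrays and were higher, and Vldlr, lower on both its probe sets, was not. Over all measured genes 49.6% were higher to any extent and 5.26% by at least 2-fold. The 13 had a median of 0.51, and 5 of them (38.5%) passed 2-fold. These were Trib3 (2.11), a pseudokinase that restrains ATF4, Ppp1r15a (1.55), which encodes the subunit that directs eIF2 alpha dephosphorylation, Herpud1 (1.25), an endoplasmic reticulum stress gene, the ATF4 partner gene Cebpg (1.08), and Atf3 (1.01). The 2 probe sets of Vldlr went from 239.4 with tetracycline to 7.9 after withdrawal and from 139.8 to 85, with the later values below the floor, so the floor left it out because it was lower. The gene for PKR, Eif2ak2, read 643.3 and 663.6. Whether that probe set reads the transgene is unknown, so this value is no check of the induction. On the same arrays the largest log2 change was thus 2.11 among regulators and -0.57 among member genes. These were at unlike levels. Trib3 read 306.8 with tetracycline, near the control floor of 281.5, and the spread at its level was 0.49. The brighter Ppp1r15a, from 1293.3 to 3786.4, had a spread of 0.28. The gap between the lists was not tested.

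**Figure D3:**
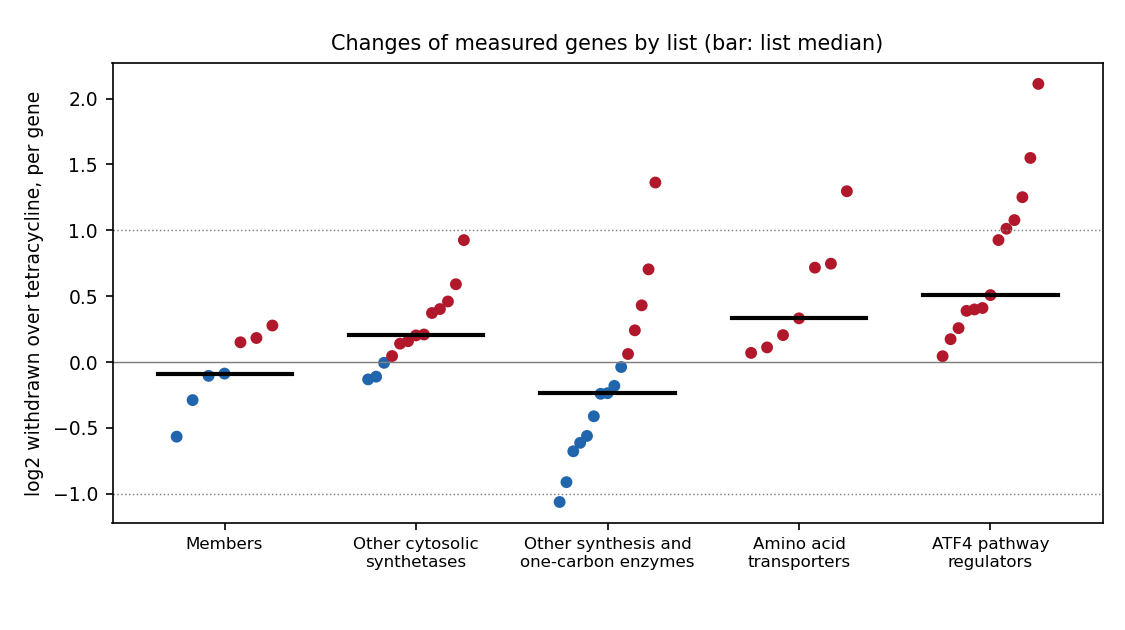
Log2 withdrawn over tetracycline of each measured gene (points; red higher, blue lower; sorted within a list) in the members and 4 other lists, with the list median as a bar and dotted lines at 2-fold. The medians are -0.087 for the members, 0.20 for other cytosolic synthetases, -0.24 for other synthesis and one-carbon enzymes, 0.33 for transporters and 0.51 for regulators.

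The site search and the sign of the change divided 6 measured members the same way, with Wars, which was higher, having no window. The 2 measured members with the site letters, Asns (0.18) and Aars (0.28), were both higher. The 4 measured members whose windows lacked the letters, Xpot (-0.087), Phgdh (-0.10), Psat1 (-0.29) and Shmt2 (-0.57), were all lower. For Xpot, Phgdh and Asns most probe sets nearest in level had a larger absolute change from 0 (82.5%, 74.5% and 53.0%). The sign of each of these 3 thus rests on a small difference between single arrays. The same letters were found in 7 genes of the other lists that were above the floor on both arrays, and these 7 were higher, 5 of them by at least 2-fold. Vldlr also holds the letters, at bases -200 to -193 of 1 of its windows, but was lower and below the floor after withdrawal, so the floor itself removed a holder that went down. The 7 were Tars (0.37) and Yars (0.59), Got1 (1.36), Slc1a4 (1.30), Atf3 (1.01), Herpud1 (1.25) and Trib3 (2.11). Those past 2-fold were much dimmer than Asns and Aars, whose spreads were 0.27 to 0.28. With tetracycline Got1 read 247, Trib3 306.8, Slc1a4 353.3 and Atf3 368.4, near the control floor of 281.5, with spreads of 0.49 to 0.68. Herpud1 read 636.7, with a spread of 0.43. Of the 34 other genes of the 5 lists with a window but no match, 22 were higher and 12 lower, 2 of them higher by at least 2-fold. Only 41 of the 49 measured genes of these lists had a window. Those without one were Cars, Nars, Hars, Rars, Slc1a5, Slc7a2 and Eif4ebp1, all higher, and Asl, which was lower. They were not searched. The matches before the start are shown for comparison with those of Asns and Aars, for 4 genes with 8 bases on either side.
Tars: gagtcccgTTGCATCAgctggtta
Got1: tgcattggTTGCATCAtacaagcc
Atf3: tctcgcacTTGCATCAccaagtcc
Herpud1: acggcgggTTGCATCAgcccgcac

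Regulators with no match in their window that were also higher by at least 2-fold were Ppp1r15a and Cebpg, and Mthfd2 was higher without one. The only Mthfd2 window belongs to a start 8407 bases from the annotated 5' end of the gene. The only window of Slc3a2, also counted as without a match, lies 9472 bases from that end of its gene. The promoters at those ends were not searched. Over all measured genes with a window, those with the letters were higher in 60 of 102 (58.8%), with a median of 0.092, and 11.8% were at least 2-fold higher. These 102 include the 9 listed genes with the letters, which were all higher and gave 5 of the 12 at least 2-fold higher. Genes without the letters were higher in 48.7% of 3516, with a median of -0.014, and 5.09% were at least 2-fold higher. Over all genes these medians differed little, and most genes that hold them did not pass 2-fold. The genes in the lists are known stress genes and were chosen with earlier results known, so this split is a description.

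**Figure D4:**
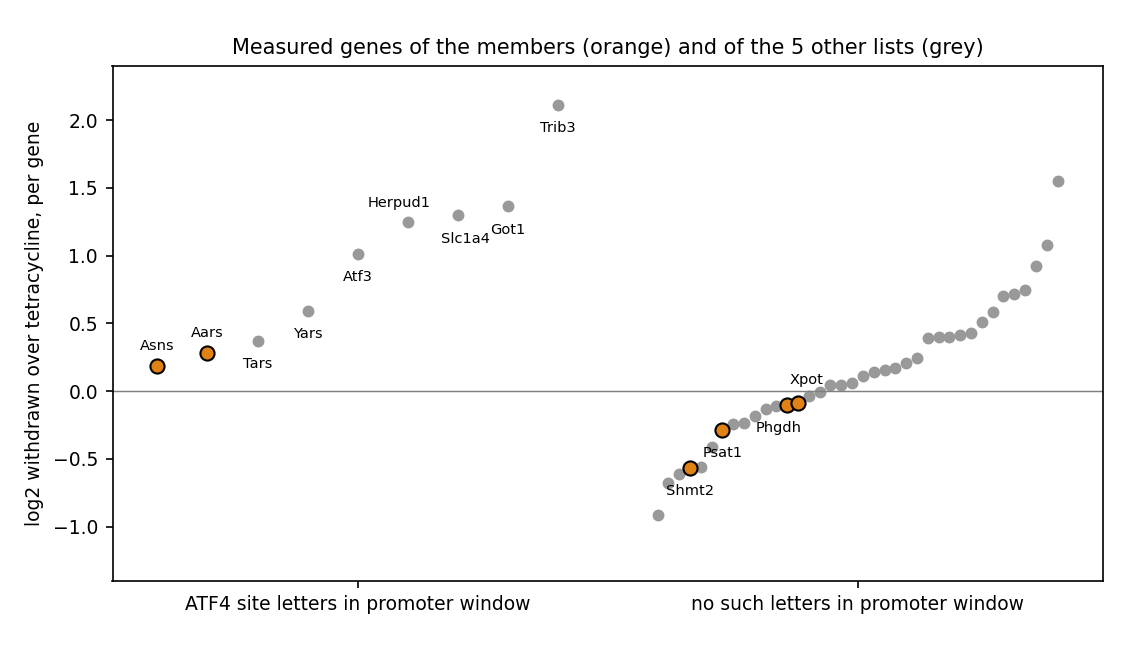
Log2 withdrawn over tetracycline of measured genes of the members (orange) and of the 5 other lists (grey), split by whether a RefSeq promoter window holds the ATF4 site letters; points are sorted by value, and their sideways place has no other meaning. All 9 plotted genes with the letters lie above 0 (Vldlr, lower and below the floor on 1 array, is not plotted). All 4 members without the letters lie below 0, with Xpot and Phgdh close to it. Of all 38 genes without the letters, 22 lie above 0.

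The labelled cell type was checked against its markers. All 9 fibroblast marker genes were above the control floor on at least 1 probe set, including Col1a1, Vim and Sparc. Their summed intensity was lower after withdrawal on both types, 58033 against 47145 on the first and 190733 against 155133 on MB. Of their 16 probe sets 12 were lower, while 2270 of all 4507 measured genes were lower to any extent. Many of these probe sets are bright. The bright actin and Gapdh controls were lower too, by -0.21 to -0.38 on the first type and -0.022 to -0.23 on MB. Among the members Psat1, Phgdh, Shmt2 and Xpot were lower, and Aars, Asns and Wars higher. The part of the marker shift in the member values was not tested. Of markers of other cell types, 3 of 6 leukocyte, 1 of 5 epithelial, 2 of 5 muscle, 0 of 5 endothelial and 1 of 3 adipocyte genes on the arrays were above the control floor. Leukocyte markers summed to 1498.4 and 1609.8 on the first type and 3247.6 and 3473 on MB, and epithelial ones to 1025.2 and 1175.2 and to 257 and 458.8. Endothelial markers summed to 226.6 and 227.2 on the first type and 847.1 and 539.1 on MB. Muscle markers (2071.3 and 2030.7) and adipocyte markers (545.1 and 438.5) were on the first type only, and no marker was listed at 0.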

How the data were processed

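Total RNA of 2 conditions was measured on 2 array types, and whether the arrays of a condition share an RNA is not stated. The authors deposited linear intensities, 1 value per probe set for each array, and how they were made from the scans is not given in the sources used here. The 2% trimmed means of the arrays of a type agreed (1000 and 1000.4, 997 and 997), and the deposited intensities were used as they stand. Control probe sets (61 per type) were left out, which left 6523 and 6534. Genes came from the platform annotation, updated by Entrez identifier through the RefSeq table of GRCm38.p6 (5532 of 5541 and 1993 of 2001 probe sets with 1 symbol matched). Probe sets with several symbols (197 and 27) or none (785 and 4506) stayed unnamed.

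The change is log2 withdrawn over tetracycline with no pseudocount, and a gene takes the median over its measured probe sets. With 1 array per condition and type no test was run, and their number limits the precision. Of the 8 member probe sets, 6 carry the suffix the manufacturer gives to sets matching more than 1 transcript. Named are all members and, per list, up to 4 genes with the largest change and up to 6 past 2-fold. Other names (Shmt1, Gcsh, Gldc, Tyms, Eif2ak2, Vldlr, the transporters below the floor, Iars2, the holders of the site letters and the genes without a window) were added after their values were seen. Members, lists and the promoter search were chosen with earlier results of these data known. The counting was checked on simulated data. Alternatives were 4 scalings, 3 floors, 2 fold limits, the brightest probe set and each array type alone. Python 3.11.15, numpy 2.4.6, pandas 2.3.3 and statsmodels 0.14.6 were used.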

Additional observations from a re-analysis of the deposited data

How the results depend on the processing

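All 8 member probe sets kept their direction under the 4 scalings (median ratio, 2% trimmed mean, loess over a span of 0.4, quantile). The trimmed mean scaling could change little, because those means already agreed. The 3 other floors (0.5 and 2 times the main floor, and the control floor) cannot alter the change of a probe set. They were therefore no check of direction, and all 8 probe sets exceeded each of them. Shmt2 ranged from -0.59 to -0.55, Asns from 0.18 to 0.28, Wars from 0.095 to 0.15 and Phgdh from -0.10 to -0.049. No member gene passed 2-fold under any of the 4 scalings. On MB alone the member median was 0.15, from Wars alone, and 1 gene was higher. The regulator median was 0.93 on MB alone, over 5 genes, and that of other synthesis enzymes -0.089 on the first type alone, over 10 genes. The transporter median was 0.21 at 0.5 times the floor (9 genes) and 0.52 at the control floor (6 genes), and the mitochondrial synthetase value was 0.48 under loess and -0.078 at 0.5 times the floor, where Sars2 joined Iars2. The cause of the other shifts was not tested. Pathway genes with the site letters were all higher at the control floor too (8 of 8), and 9 of 10 at 0.5 times the floor, where Vldlr entered as a lower one. These settings of the site split were chosen after seeing the data.

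Counts over all probe sets moved with the floor and the fold limit. Higher and lower were 368 and 368 on the first type and 619 and 534 on MB at 0.5 times the floor, 71 and 50, and 165 and 108, at 2 times the floor, and 67 and 46, and 54 and 21, at the control floor. At 1.5-fold they were 545 and 471, and 769 and 561, and at 3-fold 46 and 29, and 136 and 122. No paired analysis was possible because each condition has 1 array of each type.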
